A study of Mus musculus with 3 samples.

Results

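The genes described here encode the ubiquitin conjugating enzymes, the ubiquitin ligase subunits, the ubiquitin-specific proteases and the proteasome, and they were chosen by gene name alone. Names on the promoter array that begin with Ube2, Usp, Fbxo, Fbxl, Fbxw, Cul, Psma to Psmf, Trim or Anapc were taken, with a digit after all but Ube2. The array held 231 such names in 233 promoters, and 228 promoters of 226 names had at least 3 usable probes on every array, of 16164 promoters tested in all. Of the 5 others, Fbxw12, Fbxw14 and Psma4 had 2 probes each, and Trim61 and the Usp37-Plcd4 pair had 1 each. A few names matched the rule without belonging to the pathway: Psmc3ip encodes a meiotic recombination factor, Usp6nl a GTPase activating protein, and Usp52, now called Pan2, a subunit of a poly(A) nuclease. They were kept, since the names decided membership.

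Chromatin came from C2C12, a mouse myoblast line, arrested in G0 by culture in methyl cellulose and fixed with formaldehyde. DNA precipitated with an antibody against PRDM2 was hybridised to 2 arrays and DNA precipitated with an antibody against H3K9me2 to 1 array, with the immunoprecipitated (IP) DNA in Cy5 and the matching input DNA in Cy3 on the same array. All groups therefore share the cell line, the arrest and the dye orientation. No array of a control antibody or of growing cells was used here, and whether separate cultures stood behind the PRDM2 arrays is not labelled. A p-value therefore reflects only how far these 2 arrays differed, at that promoter and, through a shared variance, over all promoters. The arrays measured DNA, so the labelled cell type could not be checked against expressed markers.

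Ubiquitin is passed from an activating enzyme (E1) to a conjugating enzyme (E2) and from there, with the help of a ligase (E3), to a target protein. Cullins are scaffolds of a large class of ligases, in which F-box proteins choose the target of the complex built on Cul1, and the anaphase-promoting complex (APC/C) is a related ligase of mitosis and G1. TRIM proteins are mostly RING ligases, and ubiquitin-specific proteases (USP) take ubiquitin off again. Tagged proteins are degraded by the proteasome, a barrel-shaped core particle closed by a regulatory particle that unfolds the target. In muscle, the F-box protein Fbxo32 (atrogin-1) and the TRIM ligase Trim63 (MuRF1) are known as ligases of atrophy. PRDM2 is a zinc finger protein with a histone H3 lysine 9 methyltransferase domain, and H3K9me2 is a mark of silent chromatin.

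Values are log2 ratios of IP over input, with 0 at the median probe of each array and a promoter given as the mean of its probes. For PRDM2 that point lies below most promoters, with the median promoter at 0.58 (array 1) and 0.43 (array 2). For H3K9me2 it lies above most, with the median promoter at -0.23 and 36.0% of all promoters above 0. IP signal was well above background at 71.1% to 78.9% of probes and input signal at 92.8% to 99.0%. PRDM2 values were tested against 0 with limma, and a promoter is called enriched or depleted at a Benjamini-Hochberg adjusted p under 0.05 over all 16164 promoters. Precision is limited by there being few arrays.

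From promoters that headed families, the probe whose lower value on the PRDM2 arrays was highest was taken. Such probes show what the strongest signals rested on. They are given here 5′ to 3′ as designed for the array, with each CpG in capitals, and the positions are those of the array design, for which no source used here names a genome build. The last one, taken in the same way, is the probe from Fbxl8, the lowest promoter of the set, and serves as a contrast.
Ube2o, chr11:116397663-116397707: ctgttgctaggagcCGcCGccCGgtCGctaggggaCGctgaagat
Cul5, chr9:53429203-53429247: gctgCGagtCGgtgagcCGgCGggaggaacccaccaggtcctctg
Trim8, chr19:46555293-46555337: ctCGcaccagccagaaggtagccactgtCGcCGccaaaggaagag
Usp10, chr8:122797115-122797159: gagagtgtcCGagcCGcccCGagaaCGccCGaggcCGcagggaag
Psme2, chr14:54545120-54545164: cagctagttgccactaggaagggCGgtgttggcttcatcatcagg
Fbxl8, chr8:108154681-108154740: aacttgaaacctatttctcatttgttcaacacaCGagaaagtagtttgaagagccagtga

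The Usp10 probe, with 6 CpG in 45 bases and a GC content of 73.3%, read 5.71 and 5.85 on the PRDM2 arrays and 3.32 on the H3K9me2 array. The Ube2o probe, with 5 CpG, read 5.29 on both PRDM2 arrays and 2.26 on the H3K9me2 array. The Trim8 probe read 5.40 and 5.28 for PRDM2 and 2.98 for H3K9me2, and the Cul5 probe 3.57 and 3.64 for PRDM2 and 1.99 for H3K9me2. High signal was not limited to CpG-rich probes. The Psme2 probe, with 1 CpG, read 3.50 and 3.63 for PRDM2 and 3.04 for H3K9me2. Its GC content was 55.6%, and it lay at -50 bp from the start site. The Fbxl8 probe, with a GC content of 36.7%, read -0.34 and -0.04 for PRDM2 and -4.30 for H3K9me2.

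Of the 228 ubiquitin and proteasome promoters, 131 were enriched in PRDM2 IP DNA (57.5%), where 46.9% of all promoters were. Another 3 were depleted, Fbxl8, Fbxw19 and Psmd5 (1.32%, against 1.08% of all promoters). The median PRDM2 value was 0.65 for the set and 0.50 over all promoters. Both PRDM2 arrays stood above 0 at 183 of the promoters (80.3%, against 73.3% of all promoters). The PRDM2 arrays followed each other over the 228 promoters with a correlation of 0.74, a description over promoters that share the same arrays. The call depends on where 0 is placed and on how probes are combined: with the median promoter as 0, 54 promoters were enriched and 23 depleted (17.2% and 13.0% of all promoters), with loess within each array 57 and 12 (20.4% and 7.1%), with the GC trend removed per probe 29 and 1 (17.1% and 1.45%), and with the median over probes in place of the mean 18 and 0 (5.69% and 0.0866%). With normexp background correction limma passed none of the 228 in either direction (0.0% of all promoters), where 31 were enriched and 6 depleted without adjustment.

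**Figure D1:**
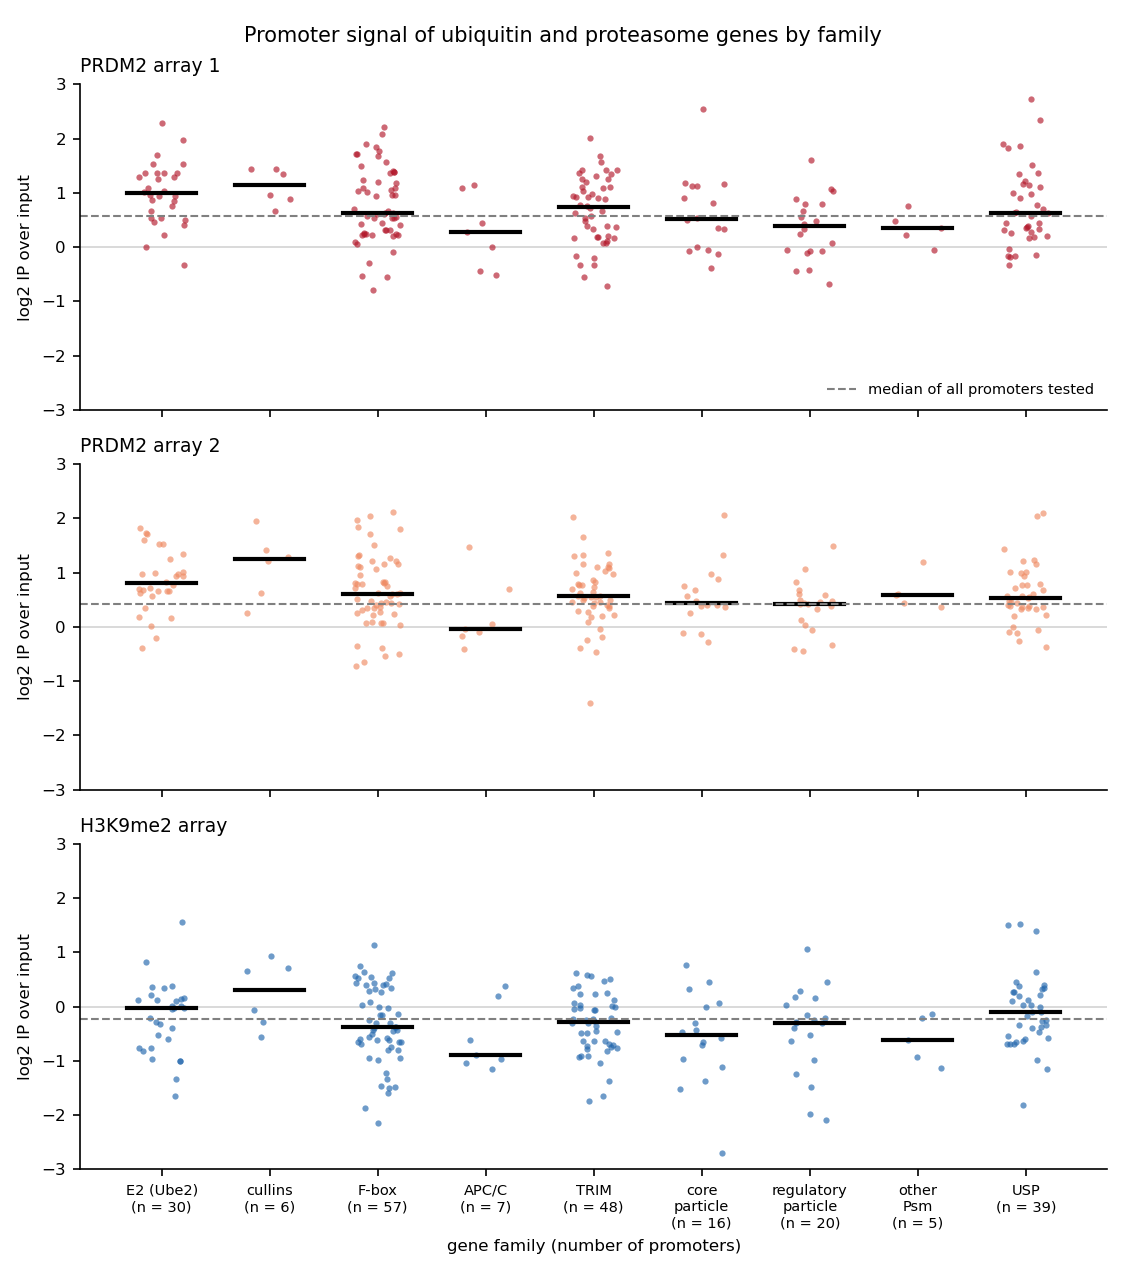
Promoter log2 IP over input (vertical axes) for every ubiquitin and proteasome promoter by gene family (horizontal axis), on the PRDM2 arrays 1 and 2 and on the H3K9me2 array. Points are promoters, black bars are family medians and the dashed line is the median of all promoters tested. E2 and cullin promoters lie highest on the PRDM2 arrays, with family medians of the PRDM2 mean of 0.90 and 1.33, and APC/C promoters lowest, with 0.09.

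Promoters of the E2 conjugating enzymes were the most often enriched of the large families. Of 30 E2 promoters, 25 were enriched (83.3%, against 46.9% of all promoters) and none depleted. Their median PRDM2 value was 0.90, against 0.50 over all promoters, an order that turned (0.17, against 0.24) with the GC trend removed per probe. Their median GC content was 45.6%, against 43.9% over all promoters. Ube2o, a large hybrid E2 and E3 enzyme, headed them with 2.29 and 1.82 on the PRDM2 arrays and 0.34 on the H3K9me2 array (adjusted p = 6.68e-05 for PRDM2 against 0, limma). Ube2v2, a catalytically inactive partner of Ube2n in building lysine-63 chains, read 1.98 and 1.74 for PRDM2 and was also the highest of the 228 for H3K9me2, at 1.57. Ube2l3, an E2 that serves HECT and RBR ligases, read 1.38 and 1.71 for PRDM2 and 0.13 for H3K9me2.

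The paired paralogs Ube2a and Ube2b, known for monoubiquitination of PCNA and histone H2B with Rad18 and Rnf20, differed in how well their arrays agreed. Ube2a read 1.26 and 1.34 on the PRDM2 arrays, whereas Ube2b read 1.71 and 0.02, so that its enrichment (adjusted p = 0.0429, limma) rested mostly on PRDM2 array 1. The E2 enzymes of the APC/C lay lower: Ube2s read 0.54 and 0.65 and was enriched (adjusted p = 0.0279, limma), and Ube2c read 0.66 and -0.21 and was not (adjusted p = 0.454, limma). The mean of Ube2s turned to -0.24 with loess and -0.14 with the median over probes. At the low end stood Ube2l6, the E2 of the ubiquitin-like Isg15, at 0.00 and 0.18, and Ube2h at -0.33 and -0.40, with -0.97 and -1.64 for H3K9me2 at the same promoters in that order.

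Cullin promoters gave the highest family median, 1.33 for PRDM2 and 0.30 for H3K9me2 over 6 promoters. Of these, 5 were enriched (83.3%, against 46.9% of all promoters). With the GC trend removed per probe none of the 6 was enriched in limma, where 17.1% of all promoters were. The median was then 0.24, as over all promoters. Cul7 read 1.44 and 1.43 for PRDM2 and -0.05 for H3K9me2, and Cul1, the scaffold of the SCF ligases, 1.35 and 1.29 for PRDM2 and 0.94 for H3K9me2. Cul5 read 0.96 and 1.95 for PRDM2 and 0.66 for H3K9me2. Cul4a, a scaffold of ligases that act in DNA repair and replication, read 1.45 and 1.21 for PRDM2 and -0.57 for H3K9me2. Its X-linked paralog Cul4b read 0.88 and 0.25 for PRDM2 and 0.72 for H3K9me2, and did not pass the test (adjusted p = 0.0517, limma). With loess Cul7 and Cul4a turned to -0.42 and -0.12, and with the GC trend removed per probe Cul1 turned to -0.025.

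F-box promoters spread from the top to the bottom of the set, with a median PRDM2 value of 0.67. They were enriched at 30 of 57 (52.6%, against 46.9% of all promoters) and depleted at 2 (1.08% of all promoters). The leucine-rich repeat members Fbxl15 and Fbxl14 were among the highest. Fbxl15 read 1.78 and 1.97 for PRDM2 and 0.27 for H3K9me2, and Fbxl14 read 1.85 and 1.84 for PRDM2 and 0.35 for H3K9me2. Both were enriched, with adjusted p-values of 7.98e-05 for Fbxl15 and 8.13e-05 for Fbxl14 (limma), and the mean of Fbxl15 turned to -0.15 with loess and -0.56 with the GC trend removed per probe.

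Among the F-box genes that encode CXXC-domain chromatin proteins, Fbxl11 (Kdm2a) read 1.39 and 1.71 for PRDM2. Fbxl10 (Kdm2b) has 2 separate stretches of probes, which read 0.53 and 0.80 for the first by position and 1.20 and 1.51 for the second, both enriched. Fbxl19 read 0.70 and 0.76 for PRDM2. The first Fbxl10 promoter turned to -0.13 with the GC trend removed per probe, and Fbxl19 to -0.11 with normexp and -0.25 with the median over probes. Fbxw7, the F-box protein that targets cyclin E and Myc for degradation, stood near 0, at 0.06 and 0.08 for PRDM2 and -0.44 for H3K9me2. Fbxo5 (Emi1), an inhibitor of the APC/C, read 0.53 and 0.48 for PRDM2 and 0.00 for H3K9me2 and narrowly missed the threshold (adjusted p = 0.0534, limma).

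The depleted F-box promoters were Fbxl8, at -0.79 and -0.64 for PRDM2 and -1.88 for H3K9me2 (adjusted p = 0.0123 for PRDM2 against 0, limma), and Fbxw19, at -0.53 and -0.73 for PRDM2 and -2.14 for H3K9me2 (adjusted p = 0.0232, limma). Fbxl8 rested on 6 probes and Fbxw19 on 4, of which 25.0% had H3K9me2 IP signal well above background. Fbxw19 belongs to a cluster of similar Fbxw genes on chromosome 9, so that its probes may read related copies.

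Of the muscle ligases, Trim63 was enriched, at 0.93 and 0.65 for PRDM2 and -0.30 for H3K9me2 (adjusted p = 0.00788, limma). Trim54 (MuRF3) was enriched as well, at 0.76 and 0.53 for PRDM2 and -0.77 for H3K9me2 (adjusted p = 0.0209, limma). Fbxo32 read 0.32 and 0.36 for PRDM2 and -1.51 for H3K9me2 and was not called (adjusted p = 0.181, limma). Its input signal stood 0.87, 0.66 and 0.76 above the median of its GC class on the PRDM2 arrays 1 and 2 and the H3K9me2 array, and its part in the low ratio was not tested. Fbxo40, a ligase of skeletal muscle that targets Irs1, read 0.57 and 0.35 for PRDM2 and 1.14 for H3K9me2. Fbxo40 alone of these genes lay above 0 on the H3K9me2 array, where it was the highest F-box promoter. On that array Fbxo40 differed from the median of its GC class by -1.78 in input signal and -0.07 in IP signal. The part of input in its high ratio was not tested. With loess Trim63, Trim54 and Fbxo32 turned below 0 for PRDM2, to -0.04, -0.48 and -0.70.

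APC/C subunits lay lowest, with a median PRDM2 value of 0.09, and 2 of 7 promoters were enriched (28.6%, against 46.9% of all promoters). The median lay below 0 with loess (-0.05), normexp (-0.12) and the GC trend removed per probe (-0.11). Anapc11, the RING subunit, read 1.09 and 1.48 for PRDM2 and -1.03 for H3K9me2, and Anapc7 read 1.15 and 0.70 for PRDM2 and 0.39 for H3K9me2. Anapc2, the cullin-like subunit, read 0.27 and -0.10 for PRDM2 and -0.62 for H3K9me2, with a PRDM2 mean of -0.54 with loess, and Anapc4 read -0.51 and -0.40 for PRDM2 and -1.16 for H3K9me2. The median H3K9me2 value of the family was -0.89, also the lowest of the 9 families.

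TRIM promoters matched the whole set, with 29 of 48 enriched (60.4%, against 46.9% of all promoters), none depleted and a median of 0.67. Trim8 read 1.58 and 2.03 for PRDM2 and 0.58 for H3K9me2, and Trim65 read 2.01 and 1.31 for PRDM2 and 0.03 for H3K9me2. The transcriptional cofactors of the family were all enriched. Trim28 (KAP1), the corepressor that zinc finger proteins use to recruit H3K9 methylation, read 1.34 and 1.66 for PRDM2 and 0.38 for H3K9me2 (adjusted p = 0.000262, limma). Trim24 read 1.31 and 1.16 for PRDM2, and Trim33 read 0.94 and 1.16. Trim27 read 0.92 and 0.76 for PRDM2 and -0.74 for H3K9me2. With the GC trend removed per probe the PRDM2 means of Trim28, Trim33 and Trim27 lay below 0, at -0.145, -0.22 and -0.01. At the low end Trim38, a regulator of innate immune signalling, read -0.55 and -0.46 for PRDM2, and Trim30 read 0.12 and -1.40. Trim30 rested on 4 probes in a family of near copies, its arrays lay on opposite sides of 0, and it was not called (adjusted p = 0.0985, limma).

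Core particle promoters were enriched at 9 of 16 (56.2%, against 46.9% of all promoters), with a median PRDM2 value of 0.56. Psmb5, the catalytic subunit with chymotrypsin-like activity, read 2.54 and 0.76 for PRDM2 and 0.33 for H3K9me2, and its mean turned to -0.03 with loess. Psma7 read 1.19 and 2.06 for PRDM2 and 0.76 for H3K9me2. Psmb4 read 1.17 and 0.98 for PRDM2 and -0.30 for H3K9me2. Psma1 was the lowest, at -0.38 and -0.27 for PRDM2, and Psmb7, the subunit with trypsin-like activity, stood at -0.06 and -0.13.

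The inducible subunits of the immunoproteasome were mixed. Psmb10 read 0.35 and 1.33 for PRDM2 (adjusted p = 0.0153, limma) and Psmb8 read 0.81 and 0.37 (adjusted p = 0.0365, limma), both enriched. The mean of Psmb10 turned to -0.05 with normexp, -0.17 with loess and -0.03 with the median over probes. Psmb9, whose probes lie 9472 bp from those of Psmb8, read 0.54 and 0.39 and was not called (adjusted p = 0.0743, limma). Their H3K9me2 values were -0.43, -0.57 and -1.12. Psme1 and Psme2, the subunits of the interferon-inducible activator of the core particle, were both enriched, with 0.76 and 0.59 for Psme1 and 0.48 and 1.20 for Psme2 on the PRDM2 arrays. Psme3, the nuclear activator, read -0.05 and 0.36 and was not called.

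Regulatory particle promoters were enriched at 8 of 20 and depleted at 1, where 46.9% and 1.08% of all promoters were. The enriched share was thus below that of all promoters. Their median PRDM2 value was 0.39, also below that of all promoters. The ATPase subunits Psmc4 and Psmc6 led, but with arrays far apart: Psmc4 read 1.62 and 0.44, and Psmc6 read 0.55 and 1.50. Psmd3 read 0.80 and 1.07 for PRDM2 and 0.04 for H3K9me2. Psmd5, an assembly chaperone of the regulatory particle, was depleted, at -0.67 and -0.42 for PRDM2 and -1.98 for H3K9me2 (adjusted p = 0.0441, limma), and 37.5% of its 8 probes had IP signal well above background on PRDM2 array 2. Psmd2 read -0.45 and -0.33 for PRDM2 and -0.64 for H3K9me2.

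USP promoters were enriched at 21 of 39 (53.8%, against 46.9% of all promoters), with a median PRDM2 value of 0.57. They included the highest promoter of the whole set, Usp10, a deubiquitinase of p53, at 2.73 and 2.05 for PRDM2 and 1.52 for H3K9me2 (adjusted p = 4.13e-05, limma). X-linked Usp9x followed, at 2.34 and 2.10 for PRDM2 and 1.50 for H3K9me2. Usp13 read 1.51 and 1.44 for PRDM2 but -0.17 for H3K9me2. The histone deubiquitinases Usp3, Usp16 and Usp22 were all enriched, with PRDM2 means of 0.97, 0.96 and 0.88, whereas Usp21, another histone H2A deubiquitinase, averaged 0.27 and was not called (adjusted p = 0.281, limma). With loess the means of Usp22 and Usp21 turned to -0.29 and -0.55. Usp28, which stabilises Myc, read 0.99 on both PRDM2 arrays, and its mean was -0.002 with the GC trend removed per probe. Usp18, the protease of Isg15, was the lowest of the family at -0.17 and -0.25.

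**Figure D2:**
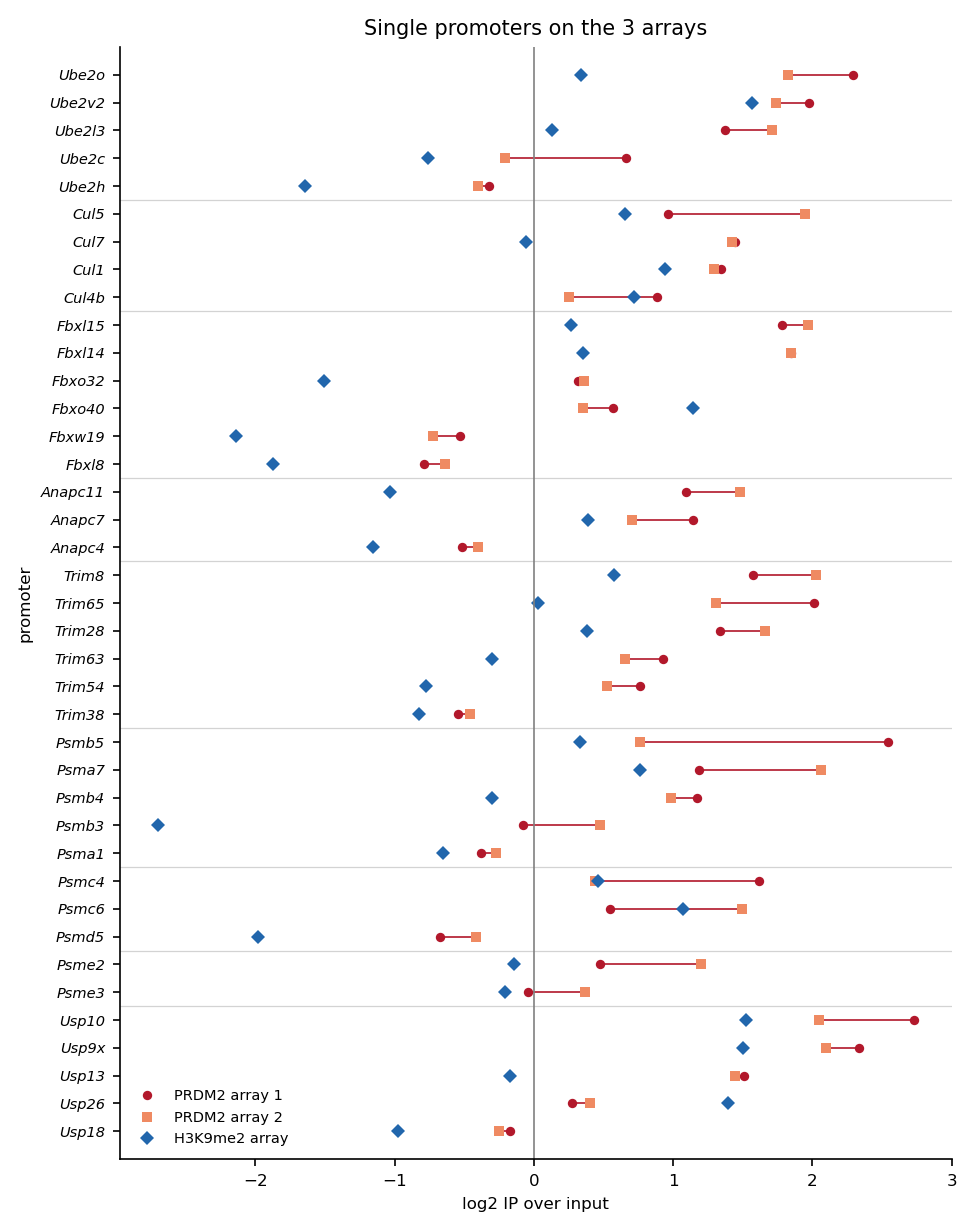
Log2 IP over input (horizontal axis) of named promoters (vertical axis), grouped by family from E2 enzymes at the top to USP at the bottom, on PRDM2 array 1 (circles), PRDM2 array 2 (squares) and the H3K9me2 array (diamonds). A line joins the PRDM2 arrays. Usp10 reaches 2.73 on PRDM2 array 1, Psmb5 shows the widest gap between the PRDM2 arrays (2.54 and 0.76), and Psmb3 the lowest H3K9me2 value (-2.70).

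GC content of the probes moved with the ratio on the PRDM2 arrays, and promoters were therefore also set beside the median of all promoters in the same of 20 classes of GC content. Over the 228 promoters the correlation of GC content with the value was 0.75 for the PRDM2 mean and 0.32 for H3K9me2, as a description over promoters on shared arrays. Relative to the GC class, the median of the set was 0.04, against 0.01 over all promoters. On this scale 7 promoters were higher (3.07%) and 5 lower (2.19%) with limma, where 4.02% and 3.25% of all promoters were, so the shares called were no larger than the background. The set differed from all promoters less on this scale than in the plain ratio, where its median was 0.15 higher.

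The 7 promoters above their GC class included Fbxo38, Ube2v2, Trim50, Usp10, Fbxw13 and Psmb4. Fbxo38 lay 1.81 and 1.03 above its class on the PRDM2 arrays (adjusted p = 0.011, limma), from 6 probes, and Ube2v2 lay 1.31 and 1.22 above (adjusted p = 0.0087, limma). Ube2v2 also lay 1.88 above its class on the H3K9me2 array, and Usp10 1.17, while Fbxo38 lay 0.12 above. Trim50 lay 1.11 and 0.66 above its class for PRDM2, and Psmb4 0.77 and 0.74. The 5 promoters below their class were Fbxl8, Anapc2, Psmc2, Trim32 and Usp21. Fbxl8 differed from its class by -1.36 and -1.08 on the PRDM2 arrays (adjusted p = 0.0109, limma). Trim32, a ligase mutated in a limb-girdle muscular dystrophy, differed from its class by -0.78 and -0.70, and Anapc2 by -0.71 and -0.93. No result relative to the GC class passed in the authors' value table or with the median over probes, where, without adjustment, 28 and 33 of the promoters were higher, and 23 lower in each, at a limma p under 0.05 (all promoters called: 0.247% higher and 0.148% lower in the value table, and 0.0% with the median over probes).

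**Figure D3:**
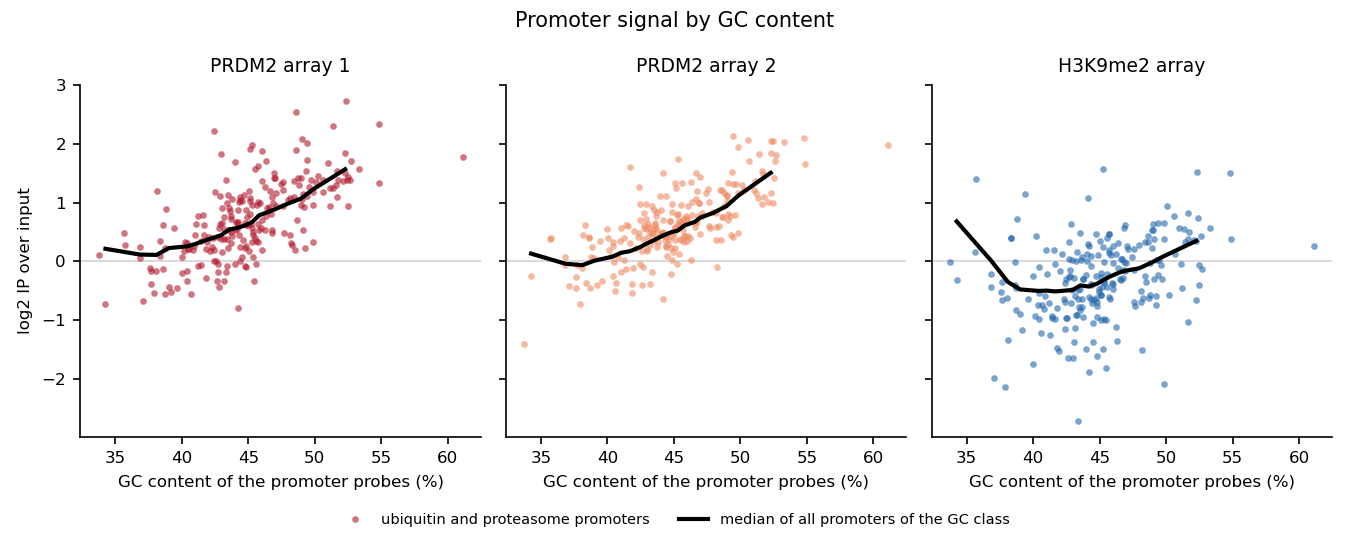
Promoter log2 IP over input (vertical axis) against the mean GC content of the promoter's probes in percent (horizontal axis) on each array, with 1 point per ubiquitin and proteasome promoter and the median of all promoters per GC class as a black line. Points follow the line upward on the PRDM2 arrays (correlation of GC content with the PRDM2 mean 0.75) and scatter widely around it on the H3K9me2 array (0.32).

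The family differences were smaller once GC content was taken into account. The medians relative to the GC class were 0.22 for cullins, 0.12 for E2 enzymes, 0.11 for USP, 0.10 for the core particle, 0.08 for the other proteasome regulators, 0.04 for F-box proteins, 0.01 for TRIM proteins, -0.05 for the regulatory particle and -0.31 for the APC/C. Of the 7 APC/C promoters none lay above its class on both PRDM2 arrays and 4 lay below on both. Of the 30 E2 promoters, 16 lay above on both and 7 below on both. Over all 16164 promoters, 5579 lay above on both and 5578 below on both. The family values are descriptions of small groups and were given no test.

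Signal was concentrated at the start sites. Exact matches of probes to RefSeq promoter windows of GRCm38.p6 located the start site of 111 ubiquitin and proteasome promoters and of 8328 others. In the bin of 250 bp centred on the start site, member probes had a median of 1.82 and 2.15 on the PRDM2 arrays and 0.96 on the H3K9me2 array. Probes of the other promoters had 1.14 and 1.33 for PRDM2 and 0.66 for H3K9me2. The highest member bin lay 250 bp downstream, at 1.98 and 2.47 for PRDM2 and 1.06 for H3K9me2. At 1000 bp downstream member probes stood at -0.32 and -0.26 for PRDM2 and -0.48 for H3K9me2.

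**Figure D4:**
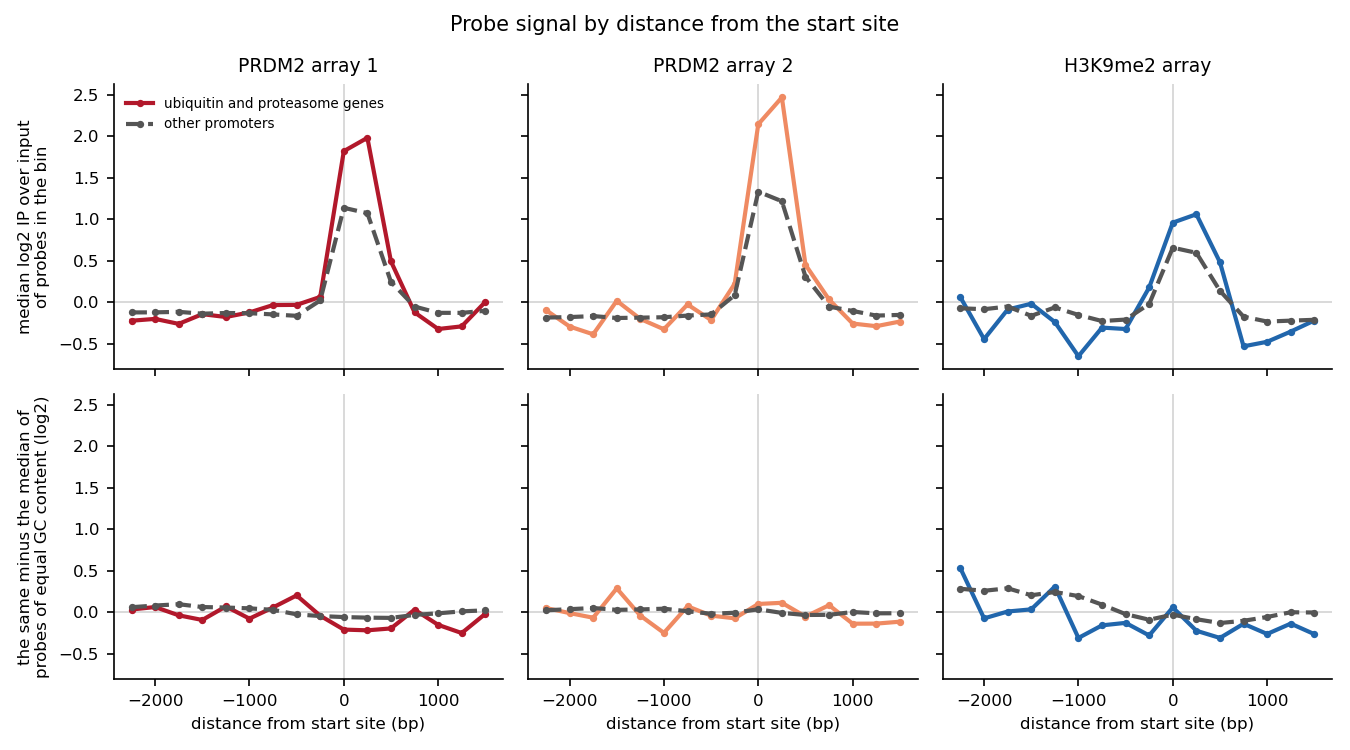
Median log2 IP over input of probes in bins of 250 bp (vertical axis, upper row) against the distance from the start site in bp (horizontal axis, positive downstream) for ubiquitin and proteasome promoters (solid) and other promoters (dashed) on the 3 arrays. The lower row shows the same after subtraction of the median of probes of equal GC content. The peak of 1.98 and 2.47 on the PRDM2 arrays at 250 bp downstream falls to -0.22 and 0.11 after that subtraction.

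The step at the start site went with base composition. Over 99 member promoters with at least 2 probes within 300 bp of the start site and 2 beyond 1000 bp, the medians near the start were 1.85 and 1.56 for PRDM2 and 0.35 for H3K9me2. Beyond 1000 bp they were 0.14 and -0.04 for PRDM2 and -0.40 for H3K9me2. The near value exceeded the far value at 76.8% and 83.8% of these promoters on the PRDM2 arrays, against 69.0% and 75.4% of 7622 others. Probes near the start had a median GC content of 54.7% in members and 50.6% in the others. With the GC trend of the probes removed, member medians near the start were 0.23 and 0.01 for PRDM2 and -0.23 for H3K9me2.

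The signal near the start varied by family. E2 promoters stood at 3.16 and 2.95 near the start (12 promoters), cullins at 3.41 and 3.09 (3), USP at 2.30 and 1.95 (19), the other proteasome regulators at 1.97 and 1.91 (5) and F-box promoters at 1.86 and 1.63 (19). TRIM promoters stood at 1.09 and 1.43 (23), the regulatory particle at 0.68 and 1.19 (8), the core particle at 0.75 and 0.95 (7) and the APC/C at 0.23 and 0.46 (3). The median GC content near the start was 62.4% for E2 promoters and 47.6% for APC/C promoters. Single promoters, chosen here after their values were seen, showed how sharp the step could be. Ube2j1, an E2 of the endoplasmic reticulum, read 4.56 and 4.49 near the start and -0.60 and -0.56 beyond 1000 bp, and Fbxo21 read 4.38 and 3.65 near and -0.49 and -0.86 beyond. Trim63 ran the other way, with -0.48 and -0.20 near the start and 1.41 and 1.46 beyond.

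Usp13 and Ube2h were high and low in the PRDM2 mean over the whole promoter. Ube2h was not low at the start itself, with 2.58 and 1.13 for PRDM2 within 300 bp of it. The upstream sequences of both are shown because they hold the same number of GC boxes (GGGCGG on either strand, in capitals), a motif bound by Sp factors. They are the 250 bases upstream of the RefSeq start, 5′ to 3′ in the direction of transcription, in GRCm38.p6.
Usp13, chr3:32817376-32817625, plus strand: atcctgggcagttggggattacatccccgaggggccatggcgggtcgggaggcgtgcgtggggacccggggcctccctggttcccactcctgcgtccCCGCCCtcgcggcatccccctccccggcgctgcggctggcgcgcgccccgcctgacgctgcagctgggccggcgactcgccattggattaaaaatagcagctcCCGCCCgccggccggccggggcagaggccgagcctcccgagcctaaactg
Ube2h, chr6:30304540-30304789, minus strand: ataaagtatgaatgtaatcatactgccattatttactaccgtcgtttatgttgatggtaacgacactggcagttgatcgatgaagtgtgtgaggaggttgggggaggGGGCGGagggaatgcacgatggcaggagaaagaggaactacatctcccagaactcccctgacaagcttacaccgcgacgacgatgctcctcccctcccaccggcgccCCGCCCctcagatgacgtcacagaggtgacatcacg

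Each of these stretches holds 2 GC boxes, with 28 CpG and a GC content of 73.6% in Usp13 and 15 CpG and 53.6% in Ube2h. Usp13 averaged 1.48 for PRDM2 and Ube2h -0.36 over the whole promoter. Within 300 bp of the start, Usp13 read 3.43 and 3.69 for PRDM2 and 1.16 for H3K9me2, and Ube2h read 2.58 and 1.13 for PRDM2 and -1.56 for H3K9me2, each from few probes (3 and 2). RefSeq windows of 300 bases, 250 before and 50 after the start, were found for 174 member promoters, or 172 different windows. GGGCGG or its reverse complement occurred in 60.5% of member windows, against 53.1% of 12470 windows of all promoters on the array. It occurred in 78.3% of E2 windows and in 38.5% of core particle windows. Of member promoters with the motif 63.2% were enriched for PRDM2, and of those without it 44.1%, against 58.1% and 34.1% over all promoters. Relative to the GC class, members with the motif had medians of -0.04 and 0.04 on the PRDM2 arrays and members without it -0.03 and 0.13. The pattern TGACNNNGC, a core of the antioxidant response element used by the proteasome regulator Nfe2l1, occurred in 16.9% of member windows and 13.8% of all windows on either strand, and in 2 of 13 core particle and 3 of 17 regulatory particle windows.

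PRDM2 values exceeded the H3K9me2 value at most promoters of the set. Both PRDM2 arrays lay above the H3K9me2 array at 212 of 228 promoters (93.0%), against 85.2% of all promoters. The difference passed in limma with PRDM2 higher at 116 promoters (50.9%) and lower at 1 (0.439%), where 41.1% and 1.60% of all promoters did. This fit assumes that the lone H3K9me2 array varies as the PRDM2 pair does, and antibody and slide cannot be told apart for H3K9me2. None of the 228 passed in either direction once both were taken relative to their GC class (0.13% and 0.0433% of all promoters), where PRDM2 was higher at 23 and lower at 8 without adjustment in limma. With the median promoter of each array as 0, PRDM2 was higher at 4 and lower at 2 (0.736% and 3.03% of all promoters). With normexp the direction turned: the median difference of the set was -0.26, against 0.97 with the processed signals, and over all promoters it was -0.29, against 0.85, with no call in limma (0.0% of all promoters) and PRDM2 higher at 2 and lower at 17 without adjustment.

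The H3K9me2 value was above 0 at 79 of the promoters (34.6%, against 36.0% of all promoters). The median was -0.29, against -0.23 over all promoters. Over the 228 promoters PRDM2 and H3K9me2 correlated at 0.60, and at 0.57 after both were set relative to the GC class, as a description. The highest H3K9me2 values were those of Ube2v2 (1.57), Usp10 (1.52), Usp9x (1.50), Usp26 (1.39) and Fbxo40 (1.14). The first 3 of these were also among the highest for PRDM2, whereas Usp26 and Fbxo40 were not enriched for it.

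The largest differences in favour of PRDM2 came from low H3K9me2 values. Psmb3, a core particle subunit, read -0.08 and 0.48 for PRDM2 and -2.70 for H3K9me2, a difference of 2.90 (adjusted p = 0.0106, limma). Psmc2, an ATPase of the regulatory particle, read 0.33 and 0.48 for PRDM2 and -2.09 for H3K9me2, a difference of 2.49 (adjusted p = 0.0106, limma). H3K9me2 IP signal was well above background at 33.3% of the probes of Psmc2 and at 60.0% of those of Psmb3. Anapc11 differed by 2.32 and Ube2b by 2.21. Psmb3 rested on 5 probes, Psmc2 on 3 and Anapc11 and Ube2b on 6 each. In the other direction the only call was Usp26, an X-linked deubiquitinase known from testis, at 0.27 and 0.40 for PRDM2 and 1.39 for H3K9me2, a difference of -1.06 (adjusted p = 0.0332, limma). With normexp the differences turned sign at Usp26 (0.80), Psmc2 (-0.25) and Ube2b (-0.05). The input of Usp26 was well above background at 42.1% of probes on the H3K9me2 array, and its part in the high ratio was not tested. Fbxo40 differed by -0.69 and was not called (adjusted p = 0.118, limma).

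**Figure D5:**
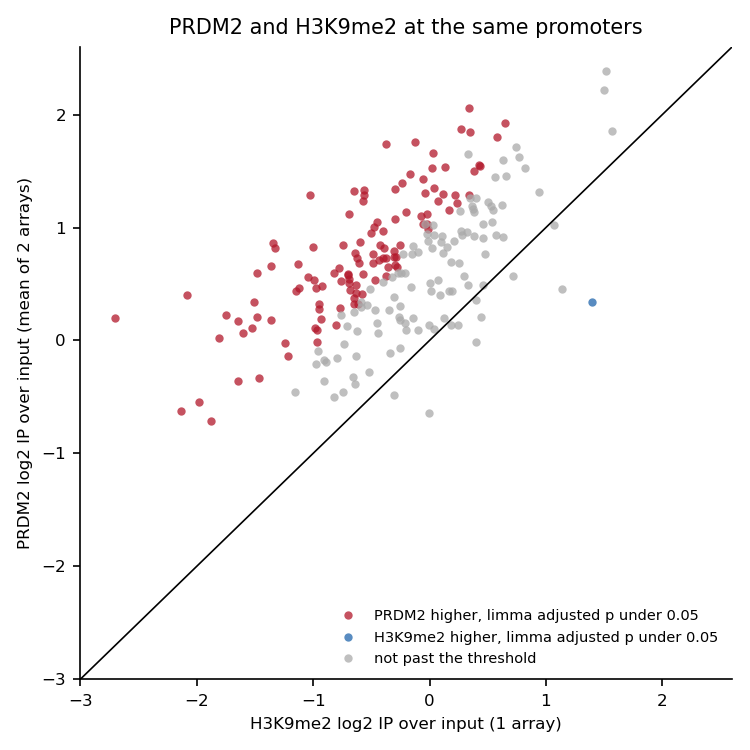
PRDM2 log2 IP over input (vertical axis, mean of 2 arrays) against H3K9me2 log2 IP over input (horizontal axis, 1 array), with 1 point per ubiquitin and proteasome promoter and a line of equality. Red points are the 116 promoters with PRDM2 higher and the blue point is Usp26, both at a limma adjusted p under 0.05, and most promoters lie above the line.

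Input signal differed between single promoters. All 7 X-linked promoters of the set had lower input than their GC class on PRDM2 array 1, by -0.45 for Psmd10 to -1.26 for Usp26. Usp9x stood 0.12 above its class in IP signal and -0.69 from it in input signal on that array, where its ratio stood 0.77 above the class. On chromosome 15, Fbxo32, Fbxl6, Fbxo43 and Fbxl7 had input 0.87, 0.92, 0.30 and 0.01 above their classes on that array, and Fbxo4 differed from its class by -0.09. The part of input level in these ratios was not tested. Over the whole set the ratio relative to the GC class had correlations with input of -0.19 and -0.22 for PRDM2 and -0.36 for H3K9me2, and with IP signal of 0.67 and 0.57 for PRDM2 and 0.50 for H3K9me2, as a description.

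Runs of at least 3 probes above the 95th percentile of both PRDM2 arrays, with gaps of at most 1000 bp, occurred in 3 promoters of the set, Usp25, Trim28 and Ube2o (1.32%, against 0.266% of all promoters). A run on the H3K9me2 array occurred in Usp10 (0.439%, against 0.643% of all promoters). Neighbouring genes of the set, chosen after their values were seen, did not always read alike. Trim28 and Ube2m lie 10933 bp apart on chromosome 7 and had PRDM2 means of 1.50 and 1.16. Fbxo6, Fbxo44 and Fbxo2 lie together on chromosome 4 and had 1.35, 1.71 and 0.95. Trim16 and Fbxw10, 23470 bp apart on chromosome 11, had 0.49 and -0.46.

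Other genes of the pathway, listed outside the naming rule, gave similar values. Of 89 promoters from a list of 105 genes, 52 were enriched for PRDM2 and none depleted, with a median of 0.64, where 46.9% of all promoters were enriched and 1.08% depleted with a median of 0.50. By group, 19 of 29 HECT and other ligase promoters, 13 of 23 cullin ligase partners, 4 of 6 APC/C partners, 8 of 12 genes of proteasome assembly and shuttling, 6 of 13 other deubiquitinases and 2 of 6 genes of ubiquitin and E1 were enriched. Cbl, a RING ligase of receptor tyrosine kinases, read 2.77 and 2.11 for PRDM2 and 0.14 for H3K9me2, above any member on the PRDM2 mean (2.44, against 2.39 for Usp10). Rnf40, a ligase of histone H2B, read 2.93 and 1.42, and its partner Rnf20 read -0.40 and 0.13. Ubb, a polyubiquitin gene, was the lowest, at -0.32 and -0.46 for PRDM2 and -1.36 for H3K9me2. Nfe2l2 and Nfe2l1, transcription factors of proteasome genes, were both enriched, at 0.96 and 1.59 for Nfe2l2 and 0.54 and 0.65 for Nfe2l1. Relative to the GC class 4 of the 89 were higher (Cbl, Rnf40, Cops2 and Ubqln2) and 2 lower (Stub1 and Ubb), where 4.02% and 3.25% of all promoters were, so the shares called were near the background.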

How the data were processed

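DNA of PRDM2 and H3K9me2 immunoprecipitates was set against input DNA on 2 and 1 Agilent promoter arrays. The deposited scanner files hold spot intensity values, which Agilent Feature Extraction 10.5.1.1 background-subtracted, detrended and linearly dye-normalized, per the file headers. They also hold raw intensity values and a log10 ratio of red over green, per the file headers. The deposited value table holds log2 values whose scale and centring are not stated; its columns had medians of 0.124, 0.103 and 0.278 and correlated with the log2 ratios of the scanner files at 0.964, 0.941 and 0.972. No source used here names the genome build of the probe positions.

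Control spots were left out of 243504 spots, as were outlier spots (773, 107 and 218 on the PRDM2 arrays 1 and 2 and the H3K9me2 array). The log2 ratio of processed signals was centred on the median probe of each array (-0.915, -0.801 and -0.273 before centring). Probes of 45 to 60 bases with 1 gene name were averaged and split at gaps over 10 kb, with at least 3 probes on every array. PRDM2 was tested against 0, against 0 after subtraction of the median of the GC class, and against H3K9me2 with limma 3.58.1 in R 4.3.3, with Benjamini-Hochberg adjustment over all promoters, and tested on simulated data. H3K9me2 alone has 1 array and no test. Of the 226 gene names, 220 were current symbols and 6 synonyms in RefSeq. Figures used Python 3.11.15 and matplotlib 3.10.9.

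The members and gene lists were chosen with earlier results of these data known. Named genes were the highest 3 and lowest 2 by PRDM2 in each family (highest 2 and lowest 1 in families under 8 promoters) where input was well above background at no fewer than 50% of the probes, the 5 highest and 5 lowest by difference from the GC class, by H3K9me2 and by PRDM2 minus H3K9me2, and a list of muscle, chromatin and cell cycle genes. A few genes that this rule names are not reported here. Alternatives were normexp (offset 50) on raw intensity, loess, the median over probes, bright input probes only, the value table, at least 8 probes, the median promoter as 0, removal of the GC trend per probe, a variance trend, other GC classes and each PRDM2 array left out.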

Additional observations from a re-analysis of the deposited data

How the results depend on the processing

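Counts of the 228 promoters are from limma at an adjusted p under 0.05, and the cause of no change given here was tested. PRDM2 enriched and depleted promoters (131 and 3) were 0 and 0 with normexp (31 and 6 without adjustment), 57 and 12 with loess, 18 and 0 with the median over probes (51 and 15 without adjustment), 29 and 1 with the GC trend removed per probe and 54 and 23 with the median promoter as 0. Depleted promoters were 6 in the value table (1.27% of all promoters) and 5 with the variance trend (1.47%). PRDM2 higher and lower than H3K9me2 (116 and 1) gave 0 and 0 on differences from the GC class (23 and 8 without adjustment), 0 and 0 with normexp (2 and 17), 12 and 9 with loess (2.82% and 8.44% of all promoters), 0 and 0 with the median over probes (44 and 13) and 4 and 2 with the median promoter as 0. PRDM2 was higher at 62 in the value table (21.4% of all promoters) and 21 with the GC trend removed per probe (5.73%), and lower at 2 with bright input probes (1.03%). Higher and lower than the GC class (7 and 5) gave 14 and 8 with normexp (4.51% and 4.54% of all promoters), 35 and 29 with loess (13.7% and 12.2%), 0 and 0 with the median over probes (33 and 23 without adjustment), 12 and 8 with bright input probes (5.27% and 3.58%), 0 and 0 in the value table (28 and 23), 29 and 1 with the GC trend removed per probe (17.1% and 1.45%) and 2 and 1 with classes of GC content and probe number (1.67% and 1.12%). With at least 8 probes 9 of 192 were lower than the GC class (4.61% of all promoters).

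The median of the set minus that of all promoters (0.145 for PRDM2) was 0.023 with normexp, 0.036 with loess, 0.089 with the median over probes and -0.061 with the GC trend removed per probe, and 0.085 without PRDM2 replicate 2 to 0.149 without PRDM2 replicate 1. Relative to the GC class (0.035) it turned to -0.026 with the median over probes and -0.061 with the GC trend removed per probe, and ran between -0.019 without PRDM2 replicate 2 and 0.078 without PRDM2 replicate 1. For PRDM2 minus H3K9me2 (0.124) it was 0.027 with normexp, 0.018 with loess and 0.009 with the GC trend removed per probe, and 0.075 to 0.169 with each PRDM2 array left out. For H3K9me2 (-0.059) it turned to 0.055 with normexp, 0.007 with loess and 0.039 with the median over probes.

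Of single promoters, PRDM2 means above 0 turned below it with loess for Anapc2 (-0.537), Cul4a (-0.122), Cul7 (-0.421), Fbxl15 (-0.15), Fbxo32 (-0.696), Psmb10 (-0.169), Psmb5 (-0.027), Trim54 (-0.479), Trim63 (-0.042), Ube2s (-0.241), Usp21 (-0.554) and Usp22 (-0.289). With the GC trend removed per probe they did for Cul1 (-0.025), the first Fbxl10 promoter (-0.132), Fbxl15 (-0.56), Trim27 (-0.009), Trim28 (-0.145), Trim33 (-0.221) and Usp28 (-0.002). With normexp they did for Fbxl19 (-0.114), Psmb10 (-0.052) and Trim54 (-0.156), and with the median over probes for Fbxl19 (-0.251), Psmb10 (-0.033) and Ube2s (-0.136). The difference of PRDM2 and H3K9me2 turned with normexp for Psmc2 (-0.248), Ube2b (-0.054) and Usp26 (0.797). With either PRDM2 array left out, no named promoter that passed its test changed sign. Such a value rests on the other PRDM2 array alone, so this shows only that both arrays lay on the same side. Anapc2, Psmb3, Psme3, Trim30 and Ube2c, none called for PRDM2, had arrays on opposite sides of 0.

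No paired analysis was possible because H3K9me2 has 1 array and shares fewer than 2 replicate numbers with PRDM2. The design has no dye swap, no control antibody and 1 array for H3K9me2, and IP signal near background bounds what low ratios can show.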
